A study of Neotoma lepida with 16 samples.

Results

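Livers of desert woodrats (Neotoma lepida) from the Mojave Desert were compared with livers of woodrats from the Great Basin while animals of both populations ate creosote bush. The comparison takes 8 of the 16 animals of a feeding trial, selected by their labels: 4 Mojave animals on creosote and 4 Great Basin animals on creosote. The trial crossed the 2 populations with 2 plant diets, creosote and juniper, and asked how the liver answers plants with different defence chemicals. The remaining 8 animals ate juniper, 4 from each population, and are used here for the spread between animals and to show whether a population difference was also present on the other plant. All animals were caught in the wild, lived in individual cages on rabbit chow for 3 months, and then ate chow with a rising amount of the plant for 5 days. No group ate chow alone, so the level of a gene before creosote is not known, and the ages of the animals are not given in the sources used here. By sex the groups were uneven, with 4 males in the Mojave group and 2 males and 2 females in the Great Basin group, and the model carried a term for sex.

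Creosote bush coats its leaves with a phenolic resin, and the desert woodrat is one of the few mammals that feeds on it. Mojave woodrats live with creosote and are the experienced population of this comparison, while Great Basin woodrats live with juniper and are the naive one. The liver handles such compounds in steps: cytochromes P450 and other oxidising or reducing enzymes modify the molecule, transferases attach a polar group such as glucuronic acid, glutathione or sulfate, and membrane pumps export the product. Nuclear receptors such as PXR (Nr1i2) and CAR (Nr1i3) sense foreign compounds and set the level of many of these enzymes.

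Each liver was measured on 1 two-colour rat array. The red dye carried the animal and the green dye an equimolar pool of the 16 livers, so each value is the log2 ratio of an animal to the same pool, and a difference of 1 between groups is a 2-fold difference. The probes are rat sequences and were not matched to woodrat transcripts here, so a sequence difference between the populations at a probe cannot be told apart from a difference in transcript level. On the 8 creosote arrays, between 46.4% and 75.3% of probe spots were well above background, with means of 65.0% ± 9.45 (SD, n = 4) for Mojave and 60.6% ± 10.2 (SD, n = 4) for Great Basin. Each of the 4 slides held 1 animal of either population on creosote, the Great Basin array always at position 1 and the Mojave array at position 2, so position and population cannot be told apart. Of 19 hepatocyte markers listed, 16 were tested, and these 16 were well above background on all 8 arrays. A gene was tested only if well above background on 4 or more of the 16 arrays, so the 16 were partly selected on that property. In bulk tissue, fewer cells of a type and less RNA per cell cannot be told apart.

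Few genes separated the populations on creosote. Of 26482 genes and transcript tags tested, 19 passed an adjusted p of 0.05, or 0.0717%. Of these, 7 were higher in Mojave livers (0.0264% of those tested) and 12 were lower (0.0453%). The differences ran from 1.47-fold to 2.63-fold. The Mojave and Great Basin values of the 19 did not overlap, which held for 5.94% of the 26244 genes measured in all 8 animals. Groups that do not overlap must differ in the same direction on every slide, as the 19 did. The 19 were selected on these same values, so neither trait is separate evidence. Counted without adjustment, 3732 genes (14.1%) had p under 0.05, with 1413 higher (5.34%) and 2319 lower (8.76%) in Mojave. The count of 19 rested on single animals and on the scaling. It was 0 without Mojave replicate 1, 24 without Mojave replicate 2, 227 without Mojave replicate 3 and 44 without Mojave replicate 4. Without Great Basin replicates 1 to 4, each left out in turn, it was 4, 105, 16 and 473. Among the males alone it was 5, of which 0 were higher and 1 was among the 19. All 19 kept their direction and an unadjusted p under 0.05 there. Without the sex term the count was 283, and with the log2 ratios as the authors deposited them 0. When arrays were centred on their median in place of loess, 186 genes were higher and 2936 lower, and the share of higher calls went from 36.8% to 5.96%.

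The 7 genes with a symbol that passed belonged to lipid metabolism, mitochondria, methyl-group metabolism and membrane signalling. Scd2, Hint2 and Bnip3l were higher in Mojave livers, and Bhmt, Sntb1, Ppap2b and Plxnb1 were lower. None of the enzymes, pumps or receptors of drug handling that were listed for this comparison was among them.

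**Figure D1:**
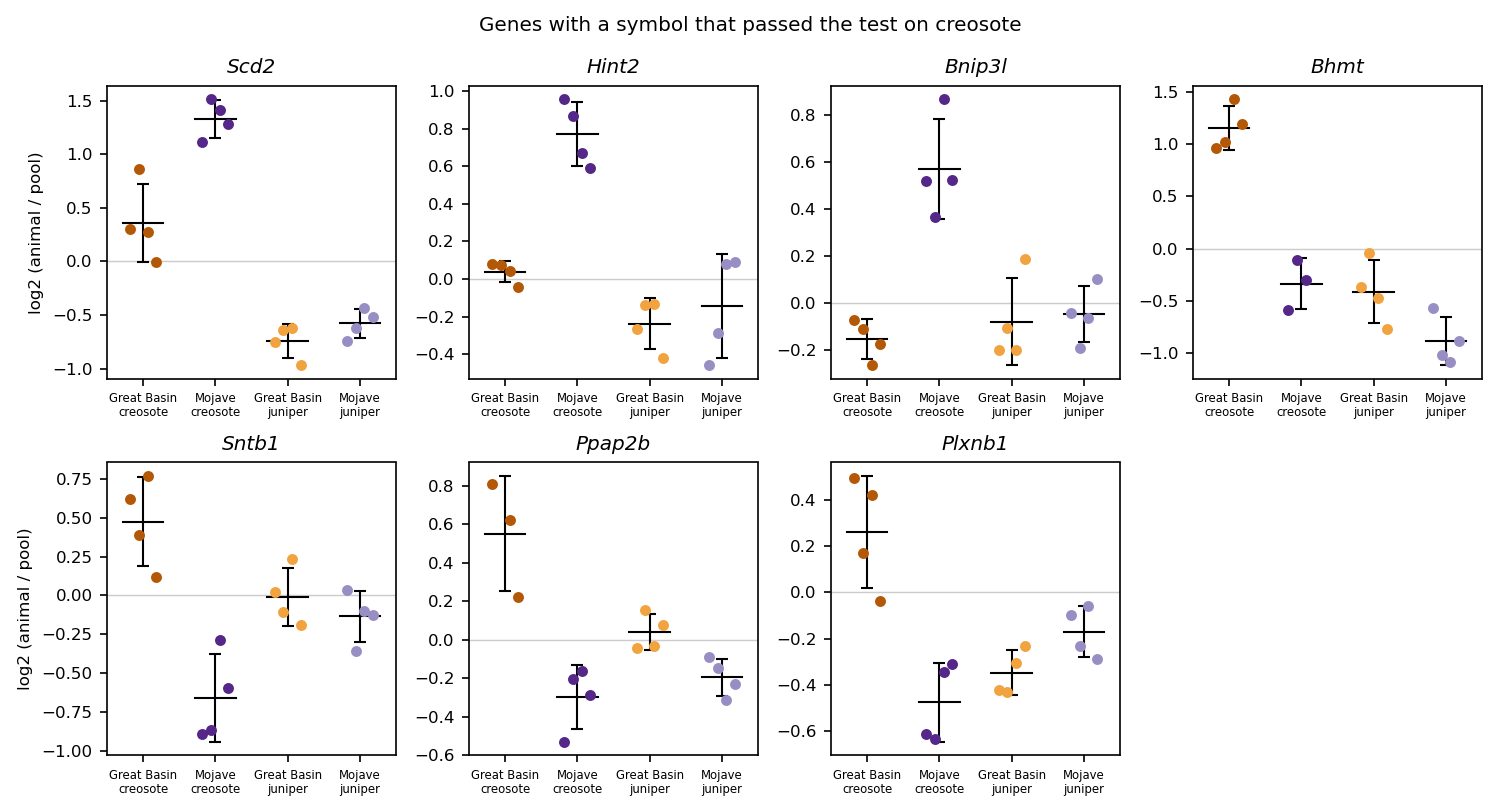
Log2 ratio of each animal to the pool for the 7 genes with a symbol that passed the test on creosote, in the 4 groups; points are animals in the order of their replicate number, horizontal lines are group means and bars are SDs. On creosote the Mojave points of Scd2, Hint2 and Bnip3l all lie above the Great Basin points, and those of Bhmt, Sntb1, Ppap2b and Plxnb1 all lie below them.

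Scd2, the stearoyl-CoA desaturase 2 that puts a double bond into saturated fatty acids, stood at 1.11, 1.51, 1.41 and 1.28 in Mojave replicates 1 to 4 on creosote. It stood at 0.30, 0.86, 0.28 and -0.01 in the Great Basin animals. The lowest Mojave animal was thus above the highest Great Basin animal. The difference was 0.95 ± 0.16 (SE, n = 4 per group, adjusted p = 0.0478), or 1.93-fold. Both further probes of Scd2 pointed the same way, at 1.85 ± 0.56 and 0.17 ± 0.06. Among the males alone Scd2 differed by 0.75. The green pool signal of this probe was also brighter on the Mojave arrays, by 0.51 ± 0.09, although the pool is the same RNA on every array. The ratio is relative to that signal, and the red signal alone differed by 1.38. The part of the pool signal in the result was not tested.

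Hint2 encodes a mitochondrial enzyme of the histidine triad family. Its values were 0.96, 0.87, 0.67 and 0.59 in Mojave animals on creosote and 0.08, 0.07, 0.05 and -0.04 in Great Basin animals. The 4 Great Basin animals lay within a narrow band close to the pool, and every Mojave animal was above them. Hint2 was higher by 0.81 ± 0.12 (SE, n = 4 per group, adjusted p = 0.0188), or 1.75-fold.

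Bnip3l encodes a receptor on the outer membrane of mitochondria that marks them for removal by autophagy. It read 0.52, 0.37, 0.87 and 0.53 in Mojave animals on creosote and -0.07, -0.11, -0.26 and -0.17 in Great Basin animals, again without overlap. The difference was 0.70 ± 0.12 (SE, n = 4 per group, adjusted p = 0.0462), or 1.62-fold. Here the green pool signal was lower on the Mojave arrays by -0.25 ± 0.07, and the red signal alone differed by 0.26. The part of the pool signal in this result was not tested.

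Bhmt gave the largest difference among the genes that passed. This abundant liver enzyme uses betaine to return homocysteine to methionine. Its values were 0.96, 1.02, 1.43 and 1.19 in Great Basin animals on creosote. In Mojave animals they were -0.59, -0.11 and -0.30, and the spot of Mojave replicate 4, marked as an outlier in its scanner file, was left out. All Great Basin animals were above the pool and all measured Mojave animals below it. Bhmt was lower in Mojave by -1.40 ± 0.17 (SE, n = 3 Mojave and 4 Great Basin, adjusted p = 0.0188), or 2.63-fold. A second, dimmer probe of Bhmt read 0.01 ± 0.07 and did not show the difference.

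Sntb1 encodes a syntrophin, an adaptor of the dystrophin complex under the cell membrane. It stood at 0.62, 0.39, 0.77 and 0.12 in Great Basin animals on creosote and at -0.89, -0.86, -0.28 and -0.60 in Mojave animals. The groups lay on opposite sides of the pool. Sntb1 was 2.21-fold lower in Mojave, a difference of -1.15 ± 0.17 (adjusted p = 0.0188; SE, n = 4 in each group), and its pool signal differed by -0.26 ± 0.10 in the same direction.

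Ppap2b, a membrane phosphatase that removes the phosphate of phosphatidic and lysophosphatidic acid, stood at 0.81, 0.62 and 0.22 in Great Basin replicates 1, 3 and 4. The spot of Great Basin replicate 2 was left out as an outlier. Mojave animals read -0.53, -0.20, -0.16 and -0.29, so the groups again lay on opposite sides of the pool. The difference was -0.94 ± 0.13 (SE, n = 4 Mojave and 3 Great Basin, adjusted p = 0.0188), or 1.92-fold. A second probe of Ppap2b read -0.07 ± 0.08.

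Plxnb1 encodes plexin B1, a receptor for a semaphorin ligand. Great Basin animals on creosote read 0.49, 0.17, 0.42 and -0.04, and Mojave animals -0.61, -0.63, -0.35 and -0.31. The lowest Great Basin animal was still above the highest Mojave animal. Plxnb1 was 1.73-fold lower in Mojave, a difference of -0.79 ± 0.12 (adjusted p = 0.0188; SE, n = 4 in each group), and its second probe read -0.15 ± 0.09.

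Leaving out 1 animal ended some of these calls. Bhmt was lost in 1 of the 8 fits that each left out 1 creosote animal (highest adjusted p = 0.0563), Hint2, Sntb1, Ppap2b and Plxnb1 each in 2 (0.0611, 0.0955, 0.128 and 0.101), Bnip3l in 3 (0.101) and Scd2 in 5 (0.146). No call remained without Mojave replicate 1, where the adjusted p of the 19 lay between 0.0563 and 0.0964, and 2 of the 19 remained without Great Basin replicate 1. The direction of all 19 was the same in each of those fits, which share most animals with the fit that selected the 19.

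The other 12 that passed are transcript tags and predicted genes without a symbol, described here by the array's own annotation. Higher in Mojave livers were the tag BE108327 (1.37 ± 0.22), RGD1561252, a locus similar to a ubiquitin carboxyl-terminal hydrolase (0.88 ± 0.15), XM_227733, a transcript similar to a ribosomal protein of the small subunit (0.59 ± 0.09, n = 3 Mojave), and the tag DV723425 (0.56 ± 0.08). BE108327 read 1.64, 0.74, 1.08 and 0.84 in Mojave animals on creosote and -0.49, -0.20, -0.41 and -0.51 in Great Basin animals. Every Mojave animal lay above the pool and every Great Basin animal below it.

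Lower in Mojave were the predicted gene RGD1309930 (-1.26 ± 0.19) and the tag AA924904 (-1.16 ± 0.17). A second probe of RGD1309930 read -1.01 ± 0.15, and this was the only one of the 12 with a second probe. Its values were 1.60, 1.26, 0.33 and 0.72 in Great Basin animals on creosote and 0.04, -0.24, -0.12 and -0.22 in Mojave animals. The Great Basin animals were spread over more than 2-fold, and the Mojave animals lay close to the pool. The others were the tags TC546005 (-0.84) and AW143544 (-0.67), the predicted genes LOC678905 (-0.83) and LOC679692, annotated as similar to a lysophosphatidylglycerol acyltransferase (-0.67), the transcript XM_343247 (-0.74), and M60206, a piece of the gene for the vitamin D binding protein of plasma (-0.77 ± 0.12).

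M60206 stood at 0.74, 0.36, 0.56 and 0.69 in Great Basin animals on creosote and at -0.09, -0.01, -0.41 and -0.21 in Mojave animals. The groups did not overlap. None of the 27 genes tested from the list of plasma proteins and apolipoproteins passed.

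The rule for naming genes also gave those with the smallest p beyond the threshold, and their values are given here without a call. On the higher side these were Gcsh of the glycine cleavage system (0.54 ± 0.09, adjusted p = 0.0501), the prefoldin subunit Pfdn5 (0.44 ± 0.08), the RNA helicase Dhx9 (0.46 ± 0.09), the transcription factor Sox10 (0.35 ± 0.07) and the calcineurin subunit Ppp3r1 (0.95 ± 0.19), the last 4 with adjusted p between 0.0659 and 0.0661. On the lower side these were Sulf2, which edits heparan sulfate outside the cell (-0.61 ± 0.11), the dUTP-degrading enzyme Dut (-0.63 ± 0.12), Cox4i1, a subunit of cytochrome c oxidase (-0.63 ± 0.12), and Ratsg2 (-0.58 ± 0.11), each with an adjusted p of 0.0659. Second probes of Gcsh (0.05), Dhx9 (0.15) and Ppp3r1 (0.17) gave smaller values.

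On juniper none of the 19 passed, and the estimate of each was smaller than on creosote. Scd2 differed by 0.17 ± 0.15 between the populations on juniper, Hint2 by 0.10 ± 0.11, Bnip3l by 0.03 ± 0.11, Sntb1 by -0.12 ± 0.16 and Plxnb1 by 0.18 ± 0.11. Bhmt (-0.47 ± 0.15) and Ppap2b (-0.24 ± 0.11) kept a smaller difference of the same sign. Among the tags, AA924904 stood at -0.78 ± 0.16 and RGD1561252 at 0.54 ± 0.14 on juniper. Of the 19, 13 had the same sign on both diets.

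Whether the population difference itself depended on the diet was tested as an interaction. By limma, 0 of the 26482 genes passed, while 3440 (13.0%) had an unadjusted p under 0.05, 1349 of them positive (5.09%) and 2091 negative (7.90%). For 17 of the 19 genes the unadjusted p was under 0.05, and their adjusted p lay between 0.0541 and 0.548 over the 19. Plxnb1 had a difference between diets of -0.97 ± 0.16 (adjusted p = 0.0569) and Scd2 one of 0.78 ± 0.22 (adjusted p = 0.149). These genes were selected on the creosote difference, which is part of the interaction, so the count of 17 is not independent of the selection. On juniper, 3 of 26482 genes passed (0.0113%), 1 higher (0.00378%) and 2 lower (0.00755%) in Mojave, of which Nap1l2 has a symbol. At an unadjusted p under 0.05 the juniper count was 2124 (8.02%), 1195 higher (4.51%) and 929 lower (3.51%). This nucleosome assembly protein gene was higher in Mojave on juniper by 1.05 ± 0.14 and differed by -0.03 ± 0.16 on creosote.

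**Figure D2:**
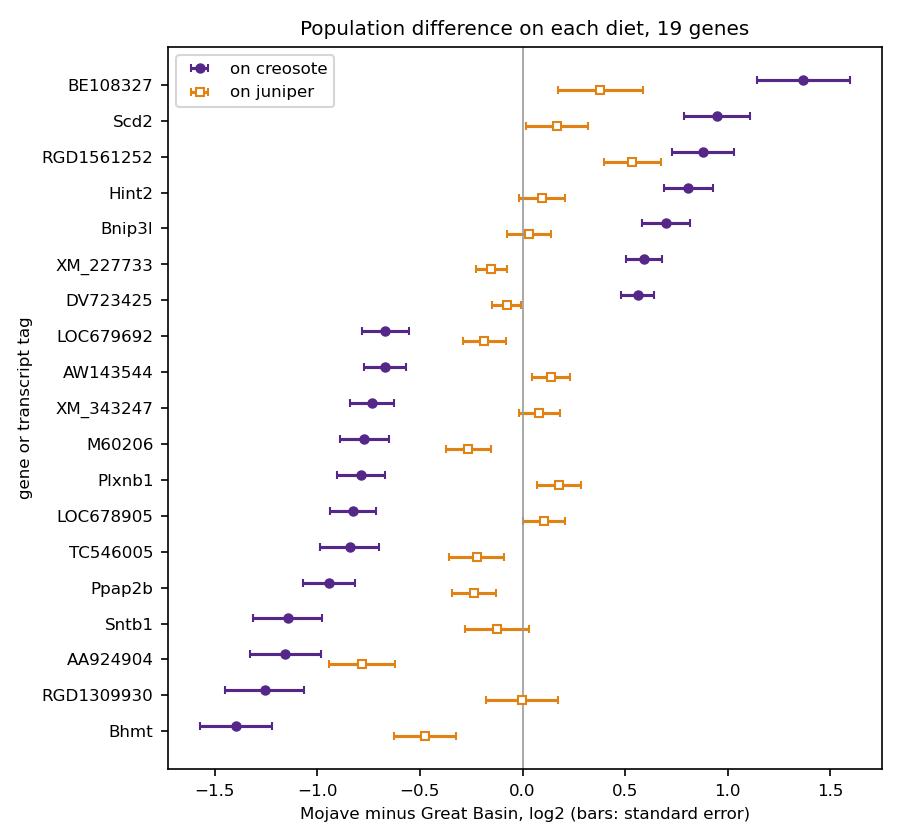
Mojave minus Great Basin difference (log2, bars are standard errors) of the 19 genes and tags that passed on creosote, on creosote (filled circles) and on juniper (open squares). All 19 creosote estimates lie farther from 0 than the juniper estimates, which run from -0.78 for AA924904 to 0.54 for RGD1561252; selection on creosote favours that order.

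Genes that handle foreign compounds were taken from a fixed list, whether or not they passed, and 47 of them were measured. The Ugt1a, Ugt2b, Gsta, Gstm, Gstp and Sult genes were taken by family. The P450s, pumps, receptors and remaining enzymes were single named genes. The list left out the Cyp2a, Cyp2c and Cyp2d families and part of Cyp3a, so it does not cover drug handling as a whole. None passed the test between Mojave and Great Basin livers on creosote. Of the 47, 4 had an unadjusted p under 0.05, against 14.1% of all genes, and 1 differed more than 2-fold. For 43 of the 47 the 95% interval of the difference lay between -1 and 1, a bound of less than 2-fold on the processed ratios under this model. The bound holds for the brightest probe of each gene, and further probes can differ. The processing added an offset that draws ratios of dim genes towards 0. For dim genes the interval therefore does not bound the difference in transcript level. Abcb1a, for example, was well above background on 1 Mojave and 1 Great Basin array on creosote, and Gsta3 on 3 and 2. Cyp2b1 is not on the array by that name, and Ephx1, Abcg2 and Nfe2l2 were too close to background for a test.

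**Figure D3:**
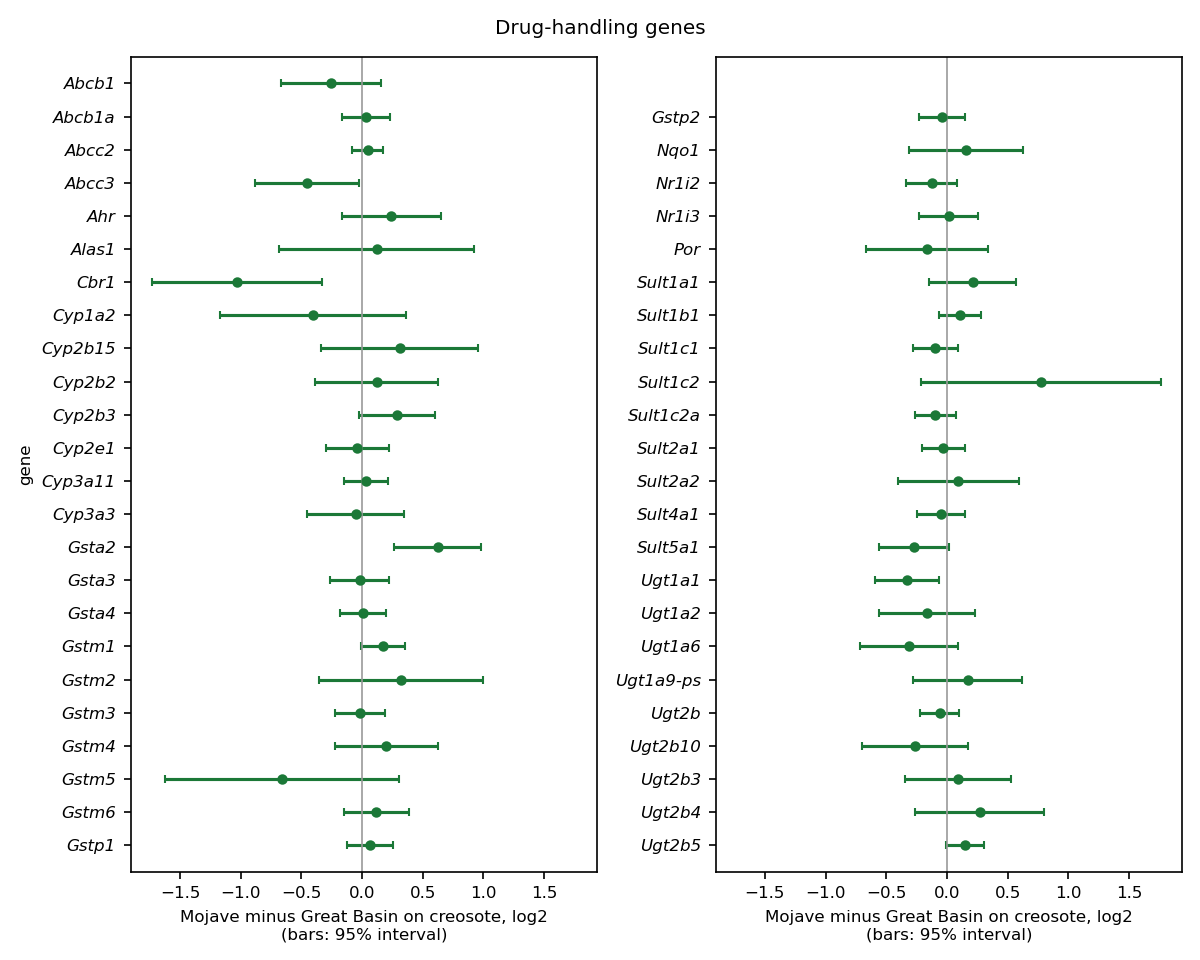
Mojave minus Great Basin difference on creosote (log2) for the 47 drug-handling genes tested, with 95% intervals from the model (t distribution with 15.02 degrees of freedom). Most intervals include 0; Cbr1 and Gsta2 lie farthest from 0 relative to their intervals, and none of the genes passed after adjustment.

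Among the P450s that begin the breakdown of foreign compounds, the phenobarbital-type Cyp2b genes had positive estimates on creosote, and none passed. Cyp2b15 read -1.60, -0.70, -1.29 and -1.06 in Mojave animals and -1.33, -0.95, -1.25 and -2.27 in Great Basin animals, so the groups overlapped. Its difference was 0.31, with a 95% interval from -0.34 to 0.96. For Cyp2b2 the difference was 0.12 (-0.38 to 0.63, n = 3 Mojave), and for Cyp2b3 it was 0.29 (-0.03 to 0.60). The 3 further probes of Cyp2b2 read 0.41 ± 0.19, 0.74 ± 0.26 (unadjusted p = 0.0112 by limma) and 0.13 ± 0.08. A second probe of Cyp2b15 read -0.09. The 4 Cyp2b genes measured ran from 0.10 to 0.31, but under median centring Cyp2b15 read -0.11 and Cyp2b2 -0.36.

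Among the 5 Cyp3a genes, which take many bulky substrates, 4 had estimates between -0.05 and 0.15, and Cyp3a62 stood apart at -0.93 ± 0.50 (adjusted p = 0.430 by limma). Cyp3a62 read -1.53, -0.48, -0.45 and -0.83 in Mojave animals on creosote and -1.30, 0.67, 0.74 and 1.27 in Great Basin animals, where replicate 1 lay within the Mojave range. Cyp3a11 read -0.33, -0.56, -0.33 and -0.43 in Mojave animals and -0.44, -0.37, -0.40 and -0.59 in Great Basin animals. The difference was 0.03 with a 95% interval from -0.15 to 0.21. Cyp3a3 differed by -0.05 (-0.45 to 0.35), and Cyp2e1, which oxidises small molecules such as ethanol, by -0.04 (-0.30 to 0.23), with saturated spots on some arrays. Cyp1a2, a target of the aryl hydrocarbon receptor, differed by -0.40 (-1.17 to 0.36, n = 3 Great Basin) and its second probe by 0.15. The electron donor Por differed by -0.16 (-0.66 to 0.34), and Alas1, the first enzyme of haem synthesis, by 0.12 (-0.68 to 0.93). In Alas1 the Mojave animals alone ranged from -1.98 to 0.30.

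Outside the 47 genes, and picked by their values, the P450s with an unadjusted p under 0.05 were Cyp2d26 (1.10 ± 0.33), Cyp2a3a (0.90 ± 0.29), Cyp2d10 (0.60 ± 0.22, n = 3 Great Basin) and, in family 4, Cyp4b1 (1.05 ± 0.34). None passed after adjustment, with adjusted p from 0.154 for Cyp2d26 to 0.249 for Cyp2d10. Cyp2a3a stood at 0.91, 1.08, 0.78 and 0.82 in Mojave animals on creosote and at -0.08, 0.12, -0.29 and 0.08 in Great Basin animals, without overlap. On juniper Cyp2d26 differed by 0.997, Cyp2d10 by 1.09 and Cyp4b1 by 1.01, while Cyp2a3a differed by 0.19.

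Of the conjugating enzymes, the glutathione transferase Gsta2 was the one whose animals separated. Its values were 0.66, 0.63, 0.59 and 0.82 in Mojave animals on creosote and -0.40, 0.37, 0.24 and -0.18 in Great Basin animals. The Mojave animals were closely grouped above all Great Basin animals. The difference was 0.62 ± 0.17 (adjusted p = 0.126; SE, n = 4 in each group), and a second probe read 0.11. In the mu class, Gstm2 differed by 0.32 (-0.35 to 0.99), Gstm4 by 0.20 (-0.22 to 0.63) and Gstm5 by -0.66 (-1.63 to 0.31). On juniper the estimates for the same genes were 0.89, 0.88 and -1.24. Further probes of Gstm5 read -0.03 and -0.10 on creosote and -0.15 and -0.03 on juniper. The microsomal Mgst3 differed by 0.41 ± 0.18 (n = 3 Great Basin), with a second probe at 0.58 ± 0.18, and was -0.02 with median centring. On juniper Mgst3 had the opposite sign, -0.75 by the first probe and -0.60 by the second, and the difference between diets had an adjusted p of 0.0845.

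The glucuronosyltransferase Ugt1a1, which conjugates bilirubin and phenolic compounds, read -0.31, -0.51, -0.12 and -0.39 in Mojave animals on creosote and -0.07, 0.28, -0.09 and -0.26 in Great Basin animals. The groups overlapped. Its difference was -0.33 ± 0.12 (adjusted p = 0.254). The 4 Ugt1a genes ran from -0.33 to 0.17 and the 5 Ugt2b genes from -0.26 to 0.27. Ugdh, which makes the glucuronic acid donor, differed by 0.53 ± 0.18 (n = 3 Great Basin, adjusted p = 0.207 by limma) and by 0.47 on juniper. Of the sulfotransferases, Sult1c2 had the largest estimate, 0.77 ± 0.46, which rested on Mojave replicate 1 at 1.57 while the other 3 Mojave animals lay between -0.62 and -0.18. The thiopurine methyltransferase Tpmt differed by -0.71 ± 0.18 (adjusted p = 0.108), by -0.64 on juniper and by 0.01 with its second probe.

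Cbr1, a carbonyl reductase that turns ketones and quinones into alcohols, gave the only difference over 2-fold among the 47. Mojave animals on creosote read -1.73, -1.22, -1.28 and -0.79. Great Basin animals read 0.56, -0.90, 0.12 and -0.57, so 1 Great Basin animal lay within the Mojave range. Cbr1 differed by -1.03 ± 0.33 (adjusted p = 0.178; SE, n = 4 in each group), and a second probe read -0.82 ± 0.30. On juniper the estimate had the opposite sign, 0.67 ± 0.30, and the test of the difference between diets gave an adjusted p of 0.129.

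The pumps and sensors followed the same pattern of small differences. The exporter Abcc3, which moves glucuronides from hepatocytes into blood, read -1.33, -0.44, -0.39 and -0.97 in Mojave animals and -0.38, -0.39, -0.01 and -0.12 in Great Basin animals. The groups touched without overlapping. Abcc3 differed by -0.45 ± 0.20 (adjusted p = 0.329), with a second probe at -0.56. The bile canaliculus pump Abcc2 differed by 0.05 (-0.09 to 0.18) and the multidrug pump Abcb1 by -0.25 (-0.67 to 0.16). The receptor PXR (Nr1i2) differed by -0.13 (-0.34 to 0.08), CAR (Nr1i3) by 0.01 (-0.23 to 0.26, second probe 0.12) and the aryl hydrocarbon receptor Ahr by 0.24 (-0.17 to 0.65). The quinone reductase Nqo1, a target of NRF2, differed by 0.16 (-0.31 to 0.63).

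Across 43 lists of genes by pathway and cell type, 2 lists held a gene that passed: Scd2 among 33 genes of lipogenesis and Bhmt among 52 genes of the urea cycle and amino acid catabolism. For the lists the counts at an unadjusted p under 0.05 are therefore given, beside 5.34% higher and 8.76% lower of all genes and an all-gene median of -0.00. Of the 43 lists, 26 had a larger share with an unadjusted limma p under 0.05 than the 14.1% of all genes. The all-gene shares cover dim genes too. With only probes above background on all 8 creosote arrays, 2905 of 15815 genes had an unadjusted limma p under 0.05. The all-gene median was -0.05 under median centring, 0.03 with the deposited ratios and 0.00 with the red signal alone. The members named as examples were picked after their values were seen, and none of them passed unless this is said. Among 31 P450s of families 1 to 3, 3 were higher and 0 lower, with a median of 0.07. That median was -0.03 under median centring, 0.20 with the deposited ratios and 0.11 with the red signal alone. Among 18 glutathione transferases, 3 were higher and 0 lower, with a median of 0.12. Here the median was 0.01 under median centring, 0.29 with the deposited ratios and 0.13 with the red signal alone. Among 10 sulfotransferases there were none on either side.

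At an unadjusted p under 0.05, more membrane pumps were lower than higher in Mojave, and so were more nuclear receptors and liver transcription factors. Of 32 ABC transporters, 9 were lower and 1 higher, with a median of -0.07 that was -0.26 under median centring. Of these 32 genes, 26 were well above background on all 8 creosote arrays. The brightest 5297 of all genes had a median of -0.07 too, and -0.48 under median centring. Those lower included the sterol exporter subunit Abcg5 (-0.56 ± 0.14) and the multidrug-type exporter Abcc1 (-0.25 ± 0.09). The 1 that was higher, Abcb6 (0.30), was -0.14 under median centring. Of 38 xenobiotic and nuclear receptors and liver transcription factors, 8 were lower and 0 higher. By sign alone, 19 of the 38 were higher and 19 lower, so the list as a whole did not lean. The median was 0.00, and -0.27 under median centring. The lower ones included Foxa2 (-0.87 ± 0.27) and Prox1 (-0.48 ± 0.13), both regulators of liver development, and the bile acid receptor Nr1h4 (-0.27 ± 0.11).

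In lipid metabolism, 5 of 33 lipogenesis genes were higher and 6 lower. Beside Scd2, the related desaturase Scd1 differed by 0.37 ± 0.11 (adjusted p = 0.163). Scd1 read 0.28, 0.84, 0.47 and 0.46 in Mojave animals on creosote and 0.16, 0.27, -0.05 and -0.09 in Great Basin animals. The lowest Mojave animal stood just above the highest Great Basin animal. The elongase of polyunsaturated fatty acids Elovl2 differed the other way, by -0.69 ± 0.16 (adjusted p = 0.0886), with a second probe at -0.05. Of 37 genes of fatty acid oxidation and PPARA targets, 3 were higher and 5 lower, among them the fatty acid uptake receptor Cd36 (-1.14 ± 0.26) and Pdk4, which restrains glucose oxidation (-0.84 ± 0.35).

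Cd36 stood at -0.58, -1.78, -0.82 and -0.65 in Mojave animals on creosote and at 0.39, -0.27, 0.18 and 0.72 in Great Basin animals. The groups did not overlap. Its adjusted p was 0.0849, and on juniper Cd36 differed by 0.07 ± 0.24.

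In nitrogen metabolism, 10 of 52 genes of the urea cycle and amino acid catabolism were lower in Mojave and 2 higher, with a median of -0.07. Besides Bhmt these included Cps1, the entry enzyme of the urea cycle (-0.53 ± 0.13, adjusted p = 0.0982), Sardh, which degrades sarcosine (-0.62 ± 0.21), and Gldc of the glycine cleavage system (-0.48 ± 0.20, second probe -0.37). Cps1 read 0.10, -0.28, 0.35 and 0.13 in Mojave animals on creosote and 0.64, 0.57, 0.69 and 0.34 in Great Basin animals. Mojave replicate 3 lay just above the lowest Great Basin animal. The serine dehydratase Sds, which was among the 2 higher, differed by 0.50 ± 0.18. Bhmt, Sardh and Gldc handle methyl and one-carbon groups, and Gcsh, the carrier protein that works with Gldc, had an estimate of the opposite sign (0.54). Averaged over the 52 genes, the Mojave animals ranged from 0.02 to 0.19 and the Great Basin animals from 0.18 to 0.39. Of the 52 genes, 46 were well above background on all 8 creosote arrays. The brightest 5297 of all genes had a median of -0.07 as well. Under median centring both this list and those bright genes read -0.48.

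In glucose metabolism, 4 of 40 genes were higher and 3 lower. G6pc, which releases glucose from the liver, differed by 0.85 ± 0.24 (adjusted p = 0.134), with a second probe at 0.56, and the fructose kinase Khk by 0.35 ± 0.09, which was -0.09 under median centring. Of 30 genes of growth hormone, IGF and activin signalling, 7 were lower and 2 higher. The growth hormone receptor Ghr differed by -0.75 ± 0.19, with a second probe at -0.20 ± 0.12, and the activin-type receptor Acvr1 by -0.76 ± 0.18. The IGF-binding protein Igfbp3 differed by 1.32 ± 0.56, with a second probe at 1.16. For Igfbp3 3 of the 4 Mojave animals lay between 0.99 and 2.00, and replicate 2 was as low as the lowest Great Basin animals.

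None of the genes tested from the lists for stress and protein turnover passed. Of 28 genes of NRF2 and redox defence, 4 were higher and 2 lower. The peroxiredoxin Prdx1 read 0.87, 0.29, 0.44 and 0.55 in Mojave animals on creosote and -0.28, 0.24, -0.24 and -0.17 in Great Basin animals. Every Mojave animal lay above every Great Basin animal. Its difference was 0.62 ± 0.14 (adjusted p = 0.0826), against -0.33 on juniper. Of 39 proteasome subunits, 5 were higher and 2 lower. Of 32 heat shock proteins and chaperones, 2 were higher and 3 lower. Of 15 p53 targets, 4 were higher and 1 lower, among them Ddit4, an inhibitor of mTOR that rises under stress (1.05 ± 0.33).

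**Figure D4:**
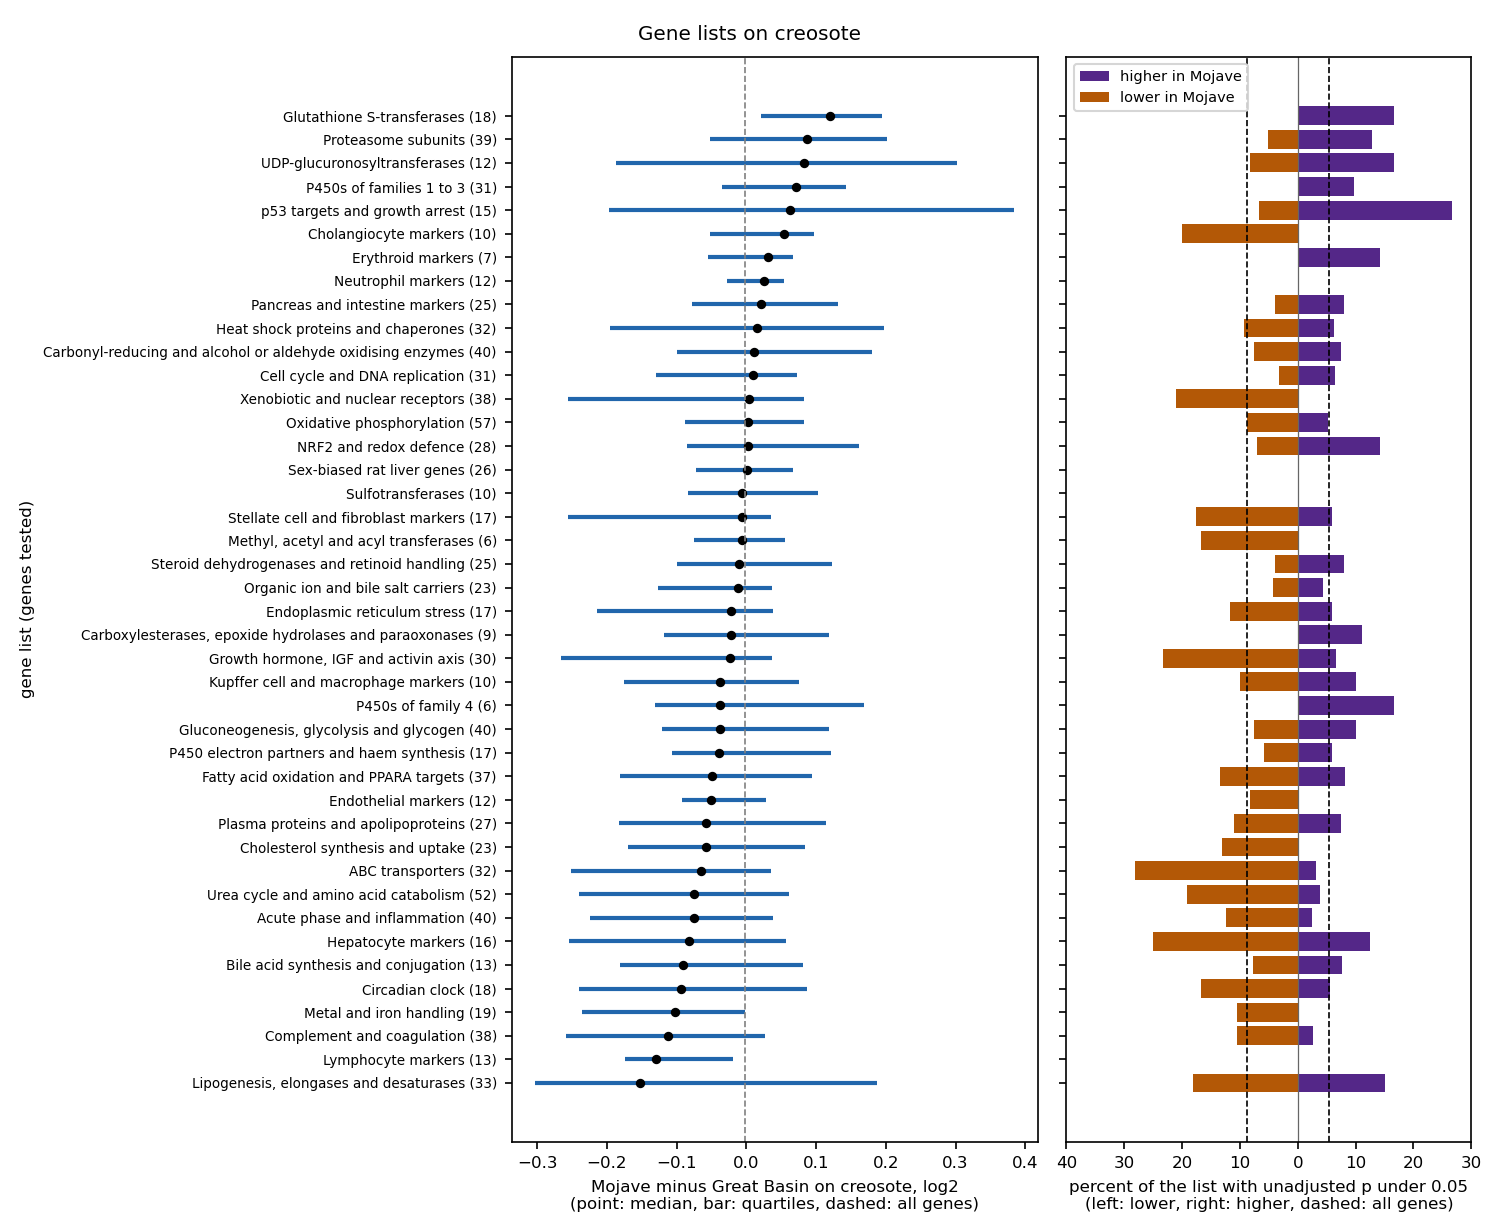
Gene lists with at least 5 genes tested, sorted by the median Mojave minus Great Basin difference on creosote: at left the median (point) and quartiles (bar) of the log2 difference, at right the percent of each list with an unadjusted p under 0.05, higher in Mojave to the right and lower to the left. Dashed lines are the values over all genes, -0.00, 5.34% and 8.76%. Many lists lie beyond the dashed lines of the percentages. Examples are ABC transporters (9 of 32 lower), hepatocyte markers (4 of 16 lower), growth hormone, IGF and activin genes (7 of 30 lower) and p53 targets (4 of 15 higher). No median of a list shown is beyond -0.15 or 0.12.

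Markers of cell types were compared as measured facts beside these lists. Among 16 hepatocyte markers, 4 were lower and 2 higher at an unadjusted p under 0.05. Apob differed by -0.75 ± 0.25 and Alb by 0.86 ± 0.31, but the further probes read otherwise, -0.17, -0.32, -0.01 and 0.03 for Apob and -0.35 and 0.15 for Alb. Averaged over the 16 markers, Mojave animals ranged from 0.38 to 0.69 and Great Basin animals from 0.44 to 0.70. Among 10 Kupffer cell markers, 1 was higher and 1 lower. Among 17 stellate cell and fibroblast markers, 3 were lower, including the basement membrane collagen Col4a1 (-1.21 ± 0.33), and 1 was higher. Among 13 lymphocyte markers and among 12 neutrophil markers, none stood on either side. The marker averages of Mojave and Great Basin animals overlapped for each of these types.

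Of 26 genes known to be sex-biased in rat liver, 0 had an unadjusted p under 0.05 between the populations on creosote, in a model with a sex term. Of 12 sex chromosome genes listed, 3 were tested, and 0 had an unadjusted p under 0.05. All 3 had higher estimates in Mojave, from 0.29 to 0.77. Their median of 0.38 was the highest of the 43 lists. It was 0.45 among the males alone and -0.07 under median centring. The sex term itself passed for 1 of the 26482 genes, the tag BE126320, which was higher in males by 2.43. Its values ran from -0.25 to 0.96 in the 10 males and from -1.98 to -1.64 in the 6 females of the trial, and did not overlap.

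Larger but less even differences did not pass the test. A set of 36 genes with a symbol differed more than 2-fold at an unadjusted p under 0.05, 12 higher and 24 lower, and only Bhmt and Sntb1 of these passed. This set was drawn after the values were seen. Snf1lk, a kinase of the AMPK family induced by cyclic AMP, read 1.49, -0.73, 0.57 and -0.43 in Mojave animals on creosote and -0.84, -2.31, -2.63 and -2.37 in Great Basin animals. All Mojave animals lay above all Great Basin animals, and the difference was 2.23 ± 0.48 (adjusted p = 0.0749). Tsc22d3, a gene induced by glucocorticoids, differed by 1.26 ± 0.29 (adjusted p = 0.0826) by its brightest probe and by 0.24 by its second.

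Brunol4, an RNA-binding protein gene, read -0.78, -0.37, -0.94 and -0.55 in Mojave animals on creosote and 0.53, 0.54, 0.43 and 0.88 in Great Basin animals. The groups did not overlap and lay on opposite sides of the pool. The difference was -1.42 ± 0.27 (adjusted p = 0.0659), and a second probe read -1.15 ± 0.18. Irf7, a transcription factor of the interferon response, differed by -1.15 ± 0.31 (adjusted p = 0.128). Great Basin replicates 1 and 2 stood above every other creosote animal, the first at 1.44, while replicate 3, at -0.26, lay within the Mojave range. The ribosomal protein genes Rpl4 (-1.32), Rpl24 (-1.31) and Rps14 (-1.17) were among the 24, although of 69 ribosomal protein genes measured 15 had higher and 7 lower values at an unadjusted p under 0.05, with a median of 0.01.

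Of the 36 genes, 28 had the same sign on juniper and 7 were at least 2-fold different there too. None of the 7 passed on either diet, and they included Olr1078, Rpl24, Col11a2, Cyp4b1, Myc and Bex4.

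Myc, a transcription factor of cell growth, read 1.35, -0.52, 0.59 and -0.69 in Mojave animals on creosote and -1.73, -0.85, -1.64 and -0.24 in Great Basin animals, with overlap. It differed by 1.57 ± 0.43 on creosote and by 1.61 ± 0.40 on juniper. Rpl24 read -0.54, -0.44, -0.32 and -0.84 in Mojave animals on creosote and 0.73, 0.08, 0.85 and 0.94 in Great Basin animals, without overlap. It differed by -1.31 ± 0.28 on creosote (adjusted p = 0.0749) and by -1.43 ± 0.26 on juniper (adjusted p = 0.139).

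**Figure D5:**
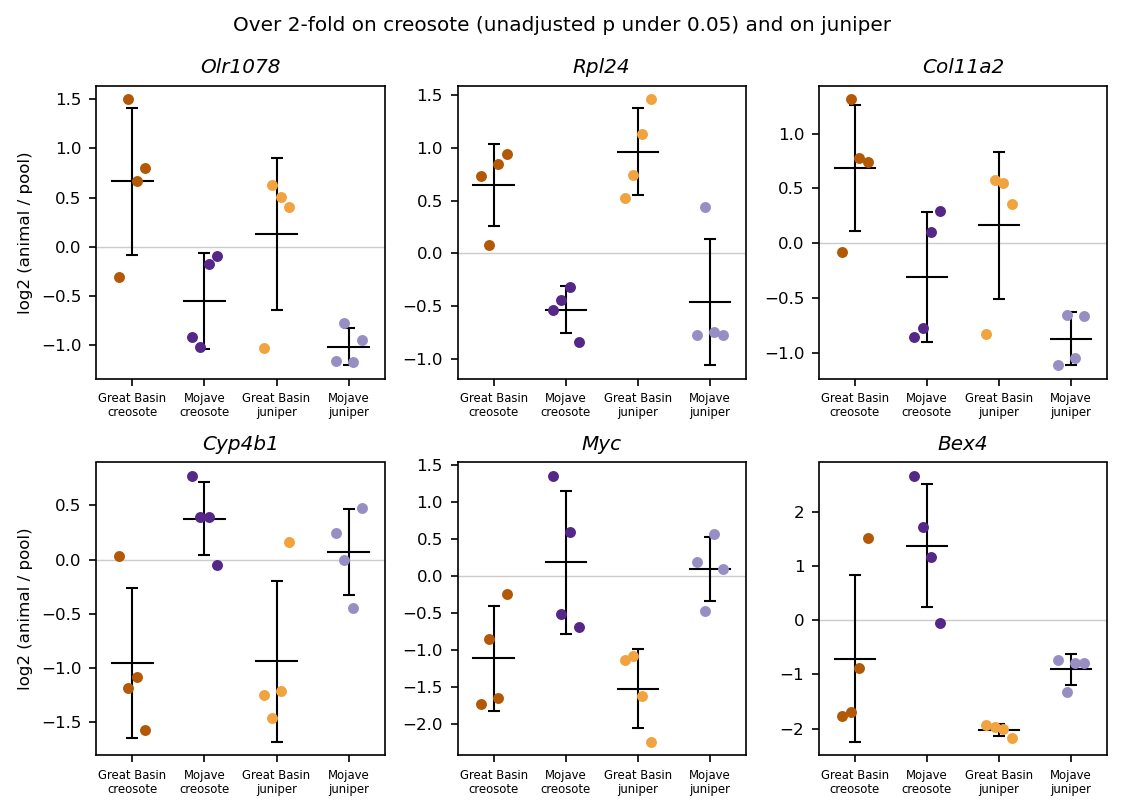
Log2 ratio of each animal to the pool for 6 of the 7 genes that differed more than 2-fold between the populations on creosote (unadjusted p under 0.05) and at least 2-fold in the same direction on juniper; lines are group means and bars SDs. Mojave points of Rpl24 lie below all Great Basin points on creosote, and Bex4 varies from -1.77 to 1.53 within the Great Basin animals on creosote.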

How the data were processed

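RNA of 16 livers was hybridised to 16 two-colour Agilent rat arrays (500 ng labelled per sample, per the labels' protocols). The deposited scanner files hold mean, background and processed signals as linear intensity and a log10 ratio, written by Agilent Feature Extraction 9.1.3.1 per the file headers. The table deposited with the series equals, to within 5e-10, the log2 of red over green processed signal, uncentred. Here the mean and background intensity was corrected in limma 3.58.1 (R 4.3.3) by normexp with an offset of 50 and by within-array loess. The offset draws ratios of dim genes towards 0. Of 45018 spots, 1639 were controls and were left out with outlier spots (0.245%). Replicate spots were averaged, a probe was kept if well above background on 4 or more of 16 arrays, and the brightest kept probe stood for a gene if each group had at least 2 values. This gave 26482 genes, 10687 with a symbol of the array's design. One limma model with 4 group means and a sex term was fitted to all 16 arrays (residual df 11, prior df 4.02), two-sided, with Benjamini-Hochberg adjustment over all genes and a threshold of 0.05. The median standard error on creosote was 0.096, and precision is limited by how many arrays there are. The code of this model was tested on simulated ratios with known differences.

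The animals compared, the lists and the tests were chosen with earlier results of these data known. The rule for named genes took, among genes with a symbol, up to 15 per direction past the threshold by size, or all that passed filled by smallest p to 8, then list members that passed, called tags and fixed drug-handling genes. Alternatives changed the sex term, males alone, the diets fitted, blocks, slide 1, centring, offset, channel, filter, probe rule, array weights and single animals. Probe sequences and woodrat genome positions are not used here. A few genes are not reported here.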

Additional observations from a re-analysis of the deposited data

Results flagged for a closer look

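In 6 sets of 4 creosote values of the named genes, 1 animal stood apart from the other 3, where chance gives about 1 in 20. The named genes gave 150 sets, and those with a missing value were not examined. Among genes that passed, DV723425 read 1.03 in Mojave replicate 2 against 0.79 to 0.83 in the other Mojave animals. RGD1561252 read 1.11 in Mojave replicate 1 against 0.63 to 0.65, and -0.35 in Great Basin replicate 4 against -0.14 to -0.11. XM_343247 read -0.65 in Mojave replicate 4 against -1.08 to -1.03. None of these animals bridged the gap between the populations. Among genes that did not pass, Dut read -0.39 in Mojave replicate 4 against -0.91 to -0.85, which is where Great Basin replicate 3 also stood, and Gstm3 read -0.30 in Great Basin replicate 3 against 0.10 to 0.16.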

How the results depend on the processing

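The 19 genes that passed on creosote kept their direction in every setting that used the signal of the animals. The green pool signal alone is a control that holds the same RNA on each array, so its sign does not test the direction. There 15 of the 19 had the same sign, and 3 of the 19 had an unadjusted limma p under 0.05. The sign was opposite for Bnip3l (-0.25), Ppap2b (0.020), DV723425 (-0.078) and XM_227733 (-0.088). Counts of genes that passed moved far more than directions, and the causes were not tested. On creosote (19) the count was 283 without the sex term, 5 in males alone, 0 without slide 1, 3122 with median centring, 0 with the deposited log2 ratios (3663 at an unadjusted p under 0.05 by limma), 2 with the red signal alone, 2 with the green pool signal alone, 30 with the mean of all probes of a gene, 12 with array weights, and 0 to 473 when 1 animal was left out. Between 13 and 21 passed with one diet fitted alone, slide or replicate blocks, an offset of 16, no filter, or probes above background on all 8 creosote arrays. Of the 19 genes, 5 were still called with one diet alone, 14 with slide as a block, 16 with an offset of 16 and 1 in males alone. With median centring the median difference was 0.08 in the dimmest 5297 genes and -0.48 in the brightest 5297, against 0.00 and -0.07 with loess.

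On juniper (3) the count was 0 in males alone, with the replicate block, without slide 1, with the deposited ratios, with either channel alone, with the stricter background filter and with the mean of probes. It was 71 with juniper animals fitted alone, 1 with slide as a block, 1 with an offset of 16, 80 with array weights and 0 to 15 with 1 animal left out. For the interaction (0, with 3440 at an unadjusted p under 0.05) it was 65 without the sex term, 14 with slide as a block, 1 with the replicate block, 2423 with median centring, 1 with the red signal alone, 10 with the mean of probes, 13 with array weights and 0 to 334 with 1 animal left out.

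Replicate numbers are shared between groups, and the labels do not say whether they pair animals. Deviations of same-numbered creosote animals correlated at -0.07, -0.09, 0.12 and -0.01. For creosote animals known to share a slide the correlations were 0.08, -0.12, 0.13 and -0.09. The measure was thus near 0 for a known sharing too, so it cannot decide whether the numbers pair animals. With the replicate block 19 genes passed on creosote, 16 of them shared with the fit without it. Of 807 further probes of genes with an unadjusted p under 0.05, 538 (66.7%) had the direction of the brightest probe.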

Other observations

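Psmb9, a catalytic subunit of the immunoproteasome, fell into 2 levels. In 8 of the 16 animals it read between -2.78 and -2.30 and in the other 8 between -0.79 and 1.80. The higher level was found in 4 Great Basin animals on creosote, 2 on juniper, and 1 Mojave animal on each diet. By sex it was found in 5 of 6 females and 3 of 10 males. On creosote, Mojave replicates 1 to 3 read -2.58, -2.30 and -2.46 and replicate 4 read 1.17, and the Great Basin animals read -0.41, 1.80, -0.79 and 0.72. The population difference was -1.38 ± 0.95 (SE, n = 4 per group, adjusted p = 0.565 by limma).

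Slc35a3, a sugar-nucleotide carrier of the Golgi, read -1.71, -2.17 and -1.67 in Mojave replicates 1, 2 and 4 on creosote and 0.73 in replicate 3. Great Basin animals on creosote read 0.64, 0.95, -0.10 and 0.45. The class I histocompatibility genes RT1-CE10 and RT1-CE12 read -1.36 and -1.71, -1.26 and -1.31, and -1.29 and -1.16 in Mojave replicates 1, 3 and 4, and 0.00 and 0.14 in replicate 2. Great Basin animals on creosote ran from -1.03 to 1.55 for RT1-CE10 and from -0.38 to 0.41 for RT1-CE12.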
